A study of Bos taurus with 24 samples.

Results

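ETV5 (ENSBTAG00000014915) and EGR1 (ENSBTAG00000010069) are transcription factors at the receiving end of growth factor signalling, and they are 2 of the 24616 bovine genes listed for every library. Both were chosen with earlier results of these data known. ETV5 was picked for its values at 3 hours, where its response to E. coli stood apart between the phenotypes, and for its change between time points, and EGR1 as a member of the study's transcription factor list for 18 hours. The values that led to each choice are therefore given as a description without a test. For ETV5 these are the values of both time points, since its change with time rests on both, and for EGR1 those of 18 hours, so that tests of the members are given for EGR1 at 3 hours.

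Blood monocytes of 6 mid-lactating Holstein cows were grown into monocyte-derived macrophages (MDMs) in medium with recombinant bovine GM-CSF, a macrophage growth factor that all groups therefore received. The study had sorted the cows into 3 high and 3 low responders by the nitric oxide that their macrophages released in culture after E. coli. For each cow and time point 1 well was left untreated as the control and 1 was exposed to E. coli inactivated with paraformaldehyde, for 3 or 18 hours, which gave 8 groups of 3 mRNA libraries. Libraries are named below by phenotype, time point and the code number in their label (91 to 94), whose meaning the labels do not give. A control and an exposed library with the same phenotype, time point and number were taken as wells of 1 cow, but the labels do not say which wells of 3 and 18 hours came from the same cow, so that no cow was followed over time. The wells are a model of isolated macrophages and dead bacteria, and they hold no other tissue and no growing pathogen.

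ETV5 belongs to the PEA3 group of ETS factors, together with ETV1 and ETV4. In many cells its transcription follows the RAS-ERK cascade, the chain of kinases that carries signals from growth factor receptors to the nucleus, and it drives genes of proliferation, migration and branching growth. EGR1 is a zinc finger factor and a classic immediate early gene, which means that existing proteins switch on its transcription within minutes of a signal, through serum response factor and the ternary complex ETS factors of the ELK group. NAB1 and NAB2 are co-repressors that bind EGR factors and dampen them. In macrophages, bacterial products reach the same cascade through the kinase MAP3K8.

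Library totals ranged from 6297190 to 20936554 expected counts (estimated read pairs per gene), with a median of 12375480. ETV5 had from 44 to 936 counts per library and EGR1 from 158 to 1743, and all 48 of these values were whole numbers. The lowest, 44 counts of ETV5 in the exposed high responder well of code 94 at 18 hours, has an exact 95% Poisson interval of 32.0 to 59.1, which covers counting error only. Macrophage markers fit the labelled cell type, with CD68 between 1174 and 2538 and CD14 between 76.7 and 567 CPM, read counts scaled to library size, while CD79A of B cells had at most 1.94 CPM. Only 5 of 11 macrophage markers could be matched to an identifier. Of the markers listed for T cells, NK cells, dendritic cells, neutrophils, platelets and fibroblasts 0 could be matched, so that these cells were not analysed here. In a bulk sample, fewer cells of a type and less RNA per cell cannot be told apart.

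Levels within a gene are given as CPM normalized over all 24 libraries, and levels between genes as TPM, the abundance of transcripts scaled for gene length. Over the 24 libraries, mean TPM was 8.44 for ETV5 and 25.1 for EGR1, which ranked them 7860 and 4633 among the 24616 genes.

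ETV5 was far higher in 1 condition than in all others, the exposed wells of high responders at 3 hours. The control wells of high responders at 3 hours had 19.7, 18.2 and 17.1 CPM for the codes 92, 93 and 94. Their exposed wells had 123, 75.8 and 86.6 CPM. The lowest exposed well thus lay above every control well, and above all 21 libraries of the other 7 conditions. In low responders at 3 hours, the control wells of codes 91, 92 and 93 had 14.2, 18.0 and 28 CPM, and the exposed wells 11.8, 26.4 and 28.4 CPM. These ranges overlapped, with the well of code 91 the lowest of both sets.

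At 3 hours mean ETV5 in high responders was 18.3 ± 1.30 CPM in control wells and 95.04 ± 24.6 CPM in exposed wells (SD, n = 3). In low responders these means were 20.1 ± 7.12 and 22.2 ± 9.07 CPM. The fitted effects of E. coli were log2 fold changes of 2.39 and 0.11, with a difference of 2.28 (high minus low). Per cow, exposed wells held 4.17 to 6.25 times the ETV5 of their control well in the 3 high responders and 0.83 to 1.47 times in the 3 low responders. Within the libraries of codes 91 and 92 (1 high and 2 low responders), this difference between the phenotypes was 2.50 on the log2 scale of CPM. Within codes 93 and 94 (2 high and 1 low responder) it was 2.18. Of 11264 genes tested at 3 hours, 0.178% were called for a difference between phenotypes. A gene was called when its adjusted p was under 0.05 and its fold change above 1.5. Nothing is read from that share here, since ETV5 was chosen on this comparison.

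**Figure D1:**
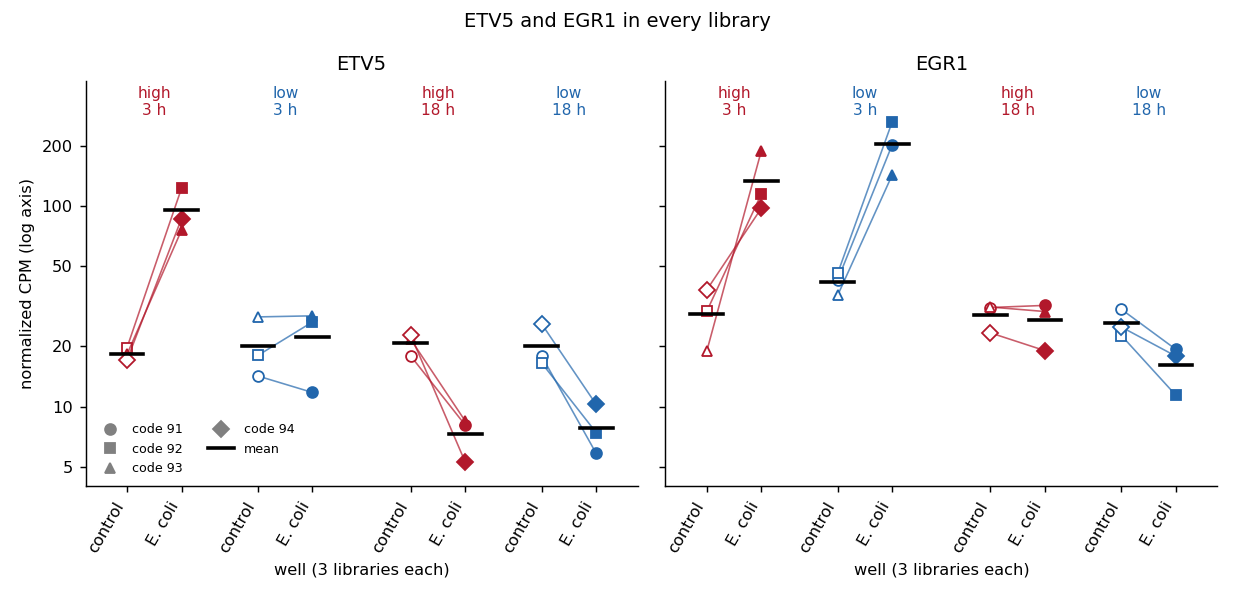
Normalized CPM of ETV5 and EGR1 (log axis) in each of the 24 libraries, with open symbols for control wells, filled symbols for wells exposed to E. coli, red for high and blue for low responders, a line joining the wells of a cow and a black bar for the mean of 3 libraries. ETV5 in the exposed high responder wells at 3 h lies between 75.8 and 123 CPM, above the other 21 libraries, while EGR1 is raised in the exposed wells of both phenotypes at 3 h.

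At 18 hours, ETV5 was lower after E. coli in both phenotypes. The control wells of high responders had 17.9, 21.7 and 22.7 CPM for the codes 91, 93 and 94, and their exposed wells 8.09, 8.47 and 5.29 CPM. Those of low responders had 17.9, 16.5 and 25.9 CPM for the codes 91, 92 and 94 in control wells and 5.85, 7.42 and 10.3 CPM in exposed wells. In both phenotypes every exposed well lay below every control well.

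The fitted effects of E. coli on ETV5 at 18 hours were log2 fold changes of -1.505 in high and -1.38 in low responders. The log2 change per cow had an SD of 0.50 over the 3 high and of 0.23 over the 3 low responders. Exposed wells held between 0.23 and 0.45 of the ETV5 of their control well in all 6 cows. At 18 hours 22.5% of the 11759 genes tested were called lower in high responders and 17.8% in low responders, and nothing is read from these shares for ETV5. Its level in exposed wells at 18 hours was 7.28 ± 1.74 CPM in high and 7.84 ± 2.23 CPM in low responders (SD, n = 3), its lowest in the series.

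The means of the phenotypes lay close together for ETV5 at 18 hours, which is a description and was not tested. The difference of the fitted log2 fold changes with E. coli (high minus low) was -0.13. With the high responder of code 94 left out it was 0.12, so that its sign rested on 1 cow. High responders differed from low responders by 0.04 in control wells, where 0.15% of genes were called. For exposed wells the difference was -0.10, and 0.0446% of genes were called. Nothing is read from these shares for ETV5. The sign turned in control wells without the high responder of code 94 (-0.04) or the low responder of code 91 (-0.03) or 92 (-0.09), and in exposed wells without the high (0.08) or the low responder of code 94 (0.16). The ranges of the phenotypes overlapped in both kinds of well. Within codes 91 and 92 (1 high and 2 low responders) the log2 changes per cow differed by 0.24. Within codes 93 and 94 (2 high and 1 low responder) they differed by -0.39.

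EGR1 was raised by E. coli at 3 hours in both phenotypes. The control wells of high responders had 29.9, 18.9 and 38.2 CPM for the codes 92, 93 and 94, and their exposed wells 115, 189 and 97.5 CPM. The control wells of low responders had 42.9, 46.3 and 35.9 CPM for the codes 91, 92 and 93, and their exposed wells 203, 264 and 143 CPM. Exposed and control wells did not overlap in either phenotype. The cow with the lowest control well among high responders, that of code 93, had the highest exposed well.

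The effect of E. coli on EGR1, as a log2 fold change, was 2.25 in high responders (SE 0.31, adjusted p = 0.000687) and 2.26 in low responders (SE 0.31, adjusted p = 0.00113), by edgeR's quasi-likelihood test over 11264 genes. EGR1 rose in 6 of 6 cows. At 3 hours 15.7% of all genes tested were called higher in high responders and 9.93% in low responders, and by size the change of EGR1 ranked 484 and 277 among 11264 genes. Mean EGR1 in high responders was 29.0 ± 9.68 CPM without and 134 ± 48.5 CPM with E. coli (SD, n = 3). The corresponding means of low responders were 41.7 ± 5.29 and 203 ± 60.2 CPM.

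The 3 high responders were far apart in this response and the 3 low responders were close. Exposed wells held 2.55, 3.84 and 9.98 times the EGR1 of their control well in high responders, and 3.99, 4.72 and 5.69 times in low responders. The SD of the log2 change was 1.01 over high and 0.26 over low responders, a difference in spread that was not tested. The SE of 0.31 in each phenotype rests on a spread fitted over both together, and so does not follow this difference.

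No difference between the phenotypes was detected for EGR1 at 3 hours. The difference of its effects was -0.01 (SE 0.44, adjusted p = 0.998, edgeR), with a 95% interval from -0.998 to 0.985, close to a 2-fold difference either way, while 0.178% of genes were called. The sign depended on single cows. The difference was -0.55 without the high responder of code 93, 0.44 without that of code 94, 0.12 without that of code 92 and 0.12 without the low responder of code 92. Within the libraries of codes 91 and 92 (1 high and 2 low responders) it was -0.43 on the log2 scale of CPM. Within codes 93 and 94 (2 high and 1 low responder) it was 0.34.

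Mean EGR1 was lower in high than in low responders in both kinds of well at 3 hours, but no difference was detected in either. The log2 difference was -0.54 in control wells (SE 0.29, adjusted p = 0.81, edgeR) and -0.57 in exposed wells (SE 0.31, adjusted p = 0.46), with 0.00906% and 0.0839% of genes called. The intervals were from -1.202 to 0.132 and from -1.28 to 0.14. Without the high responder of code 93 the difference was -0.31 in control and -0.93 in exposed wells, without that of code 94 it was -0.81 in control wells, and without the low responder of code 92 it was -0.36 in exposed wells. The ranges of the phenotypes overlapped in both kinds of well.

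At 18 hours, the values for which EGR1 was listed, exposed wells were close to control wells in high responders and lower than control wells in low responders. High responders had 31.2, 31.4 and 23.3 CPM in control wells of the codes 91, 93 and 94 and 32.0, 29.8 and 19.0 CPM in exposed wells. Low responders had 30.5, 22.6 and 24.9 CPM in control wells of the codes 91, 92 and 94 and 19.3, 11.4 and 17.8 CPM in exposed wells. The ranges of control and exposed wells overlapped in high responders and did not in low responders, where each exposed well lay below its control well. The fitted effects were -0.12 in high and -0.73 in low responders, with a difference of 0.62. On the log2 scale of CPM that difference was 0.86 within codes 91 and 92 (1 high and 2 low responders). Within codes 93 and 94 (2 high and 1 low responder) it was 0.30. Both are a description of the values for which EGR1 was listed.

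**Figure D2:**
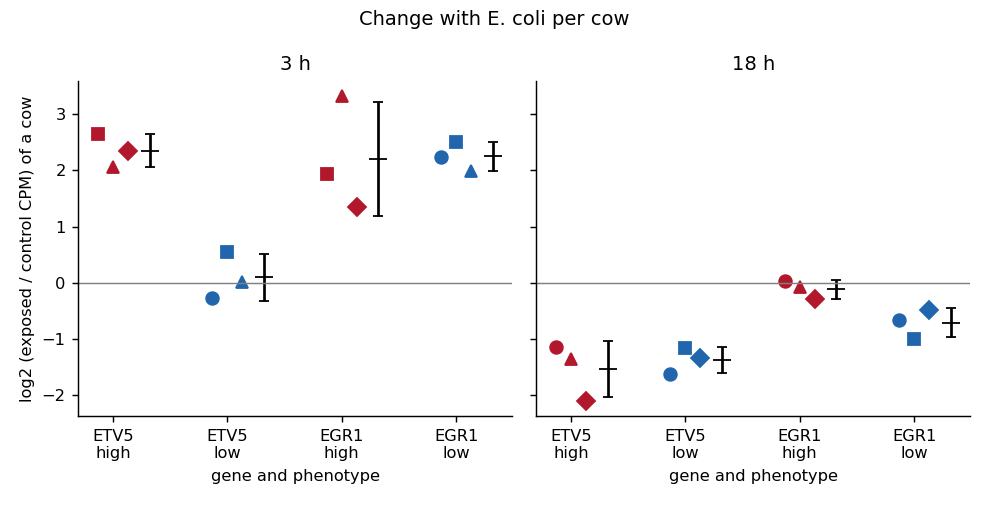
Log2 ratio of exposed to control CPM for each cow at 3 h and at 18 h, in red for high and blue for low responders, with the symbols of the code numbers used in the plot of levels and the mean ± SD of 3 cows in black. ETV5 at 3 h separates the phenotypes (2.06 to 2.64 against -0.27 to 0.55), while the values of EGR1 at 3 h and of ETV5 at 18 h overlap between them.

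Ordered by level, the conditions fell into 3 steps for ETV5. The exposed high responder wells at 3 hours stood 4.29-fold above the next condition, the exposed low responder wells at 3 hours. That condition and the 4 control conditions followed with means between 18.3 and 22.2 CPM, and neighbours in this order overlapped. The exposed wells at 18 hours came last, 2.33-fold below the lowest control condition and without overlap with it, and these 2 groups overlapped each other.

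EGR1 had another order. The exposed low responder wells at 3 hours (203 CPM) overlapped the exposed high responder wells (134 CPM), which stood 3.21-fold above the next condition without overlap. The control wells of both times and the exposed high responder wells at 18 hours followed between 41.7 and 26.0 CPM, each overlapping the next. The exposed low responder wells at 18 hours were last, at 16.2 ± 4.21 CPM, below the control wells of low responders at that time without overlap.

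Between 3 and 18 hours the control wells of ETV5 hardly moved. Mean ETV5 in control wells at 3 hours was 0.88 times that at 18 hours in high responders and 1.00 times in low responders. In exposed wells it was 13.1-fold higher at 3 hours than at 18 hours in high responders and 2.83-fold in low responders. For EGR1 the larger of these folds belonged to the other phenotype, with 4.97-fold in high and 12.6-fold in low responders. In control wells EGR1 was 1.01 times its 18 hour mean at 3 hours in high responders and 1.60 times in low responders. These folds compare wells that the labels do not tie to the same cow, and ETV5 was chosen partly for its own, so that they are given without a test.

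Within a library, EGR1 transcripts outnumbered those of ETV5 in all 24 libraries. The mean ratio of EGR1 to ETV5 in TPM was between 1.78 and 4.86 in 7 conditions. It was 14.2 in the exposed low responder wells at 3 hours, with 3 values from 6.67 to 22.7, all above the other 21 libraries. The exposed high responder wells at 3 hours, in which EGR1 rose as well, had a ratio of 2.00 (1.23 to 3.28) and their control wells 2.11 (1.37 to 2.96). At 18 hours the ratio in high responders was 1.86 in control wells (1.35 to 2.30) and 4.86 in exposed wells (4.63 to 5.22), without overlap. In low responders at 18 hours it was 1.78 in control wells (1.27 to 2.25) and 2.89 in exposed wells (2.02 to 4.35), with overlap. These ratios include the ETV5 values used to choose the gene and are a description.

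**Figure D3:**
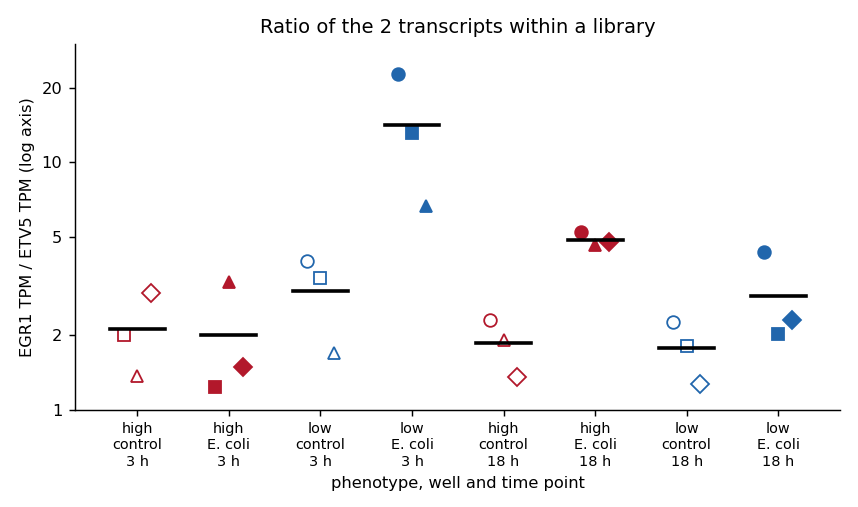
Ratio of EGR1 TPM to ETV5 TPM within each library (log axis) in the 8 conditions, with open symbols for control wells, filled symbols for exposed wells, red for high and blue for low responders and a black bar for the mean of 3 libraries. The exposed low responder wells at 3 h lie between 6.67 and 22.7, above all other libraries.

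The pathway around both genes was followed through 7 lists of known growth-signal genes with 101 symbols, of which 33 could be matched to an identifier, and all 33 were tested. Symbols came from shortened copies of the study's tables of its contrast between the phenotypes in these libraries, in which genes that respond are over-represented. At 18 hours 7.21% of tested genes with a symbol were called for a difference between phenotypes against 1.62% of all genes, and at 3 hours 39.7% of those with a symbol were called in either direction in high responders against 27.6% of all. List counts are therefore set beside both shares.

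Most of the matched genes responded in high responders. Of the 33, 21 rose and 5 fell at 3 hours in high responders, and 14 rose and 4 fell in low responders, of which 9 rose when the low responder of code 92 was left out. The shares called higher were 27.7% and 19.9% among genes with a symbol, against the 15.7% and 9.93% of all genes, and the shares called lower were 12% and 7.56% among genes with a symbol, against 11.9% and 7.78% of all genes. At 18 hours 21 rose and 6 fell in high responders, where 17.1% of all genes and 32.5% of those with a symbol were called higher, and 11 rose and 8 fell in low responders, where 11.3% and 20% were. The shares called lower at 18 hours were 26% and 21.7% among genes with a symbol, against the 22.5% and 17.8% of all genes given above. The median log2 effect over the 33 genes was 1.08 in high and 0.32 in low responders at 3 hours, beside -0.01 and -0.03 over all genes tested and 0.10 and 0.04 over those with a symbol.

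Of 5 matched ETS relatives of ETV5, 1 rose and 2 fell at 3 hours in each phenotype. At 18 hours 2 rose and 2 fell in high and 1 rose and 1 fell in low responders. Of genes with a symbol, 27.7% and 19.9% were called higher and 12% and 7.56% lower at 3 hours in high and low responders. At 18 hours the shares were 32.5% and 20% higher and 26% and 21.7% lower. Nothing is read from counts among 5 genes beside these shares. ETS1 and ELF1 were not called at 3 hours. ETV1, ETV4 and the other EGR factors could not be matched. ETV3, an ETS repressor, rose with log2 effects of 3.30 and 2.16 in high and low responders at 3 hours, and of 2.29 and 1.42 at 18 hours. Its mean level in exposed wells at 3 hours was 155 ± 43.4 CPM (SD, n = 3) in high and 123 ± 42.6 CPM in low responders, so that it rose in both phenotypes while ETV5 had its high level in 1. ELK3, a ternary complex factor that can repress immediate early genes, fell by 1.27 and 1.49 on the log2 scale at 3 hours and by 1.03 and 0.96 at 18 hours. ERF, an ETS repressor that ERK keeps out of the nucleus, fell by 0.89 and 1.49 at 3 hours and by 0.64 in high responders at 18 hours, and had -0.54 in low responders, short of the thresholds. The adjusted p of these calls ranged up to 0.011 (edgeR).

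NAB1, the co-repressor of EGR factors, was the matched gene of its list. It rose in high responders by a log2 effect of 1.30 at 3 hours (SE 0.13, adjusted p = 0.000107) and of 0.96 at 18 hours (SE 0.09, adjusted p = 1.26e-05, edgeR). In low responders its effects of 0.53 and 0.43 stayed under the fold threshold. The difference between the phenotypes, 0.77 at 3 hours (adjusted p = 0.16) and 0.53 at 18 hours (adjusted p = 0.071), was not called.

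Of 9 matched immediate early genes, 8 rose in high and 7 in low responders at 3 hours, when 27.7% and 19.9% of genes with a symbol did. At 18 hours 6 and 4 rose and 1 fell in low responders, when 32.5% and 20% of genes with a symbol were called higher. NR4A1, an orphan nuclear receptor, had 1.03 ± 0.24 CPM in control and 42.1 ± 27.8 CPM in exposed wells of high responders at 3 hours (SD, n = 3). Low responders had 1.94 ± 1.35 and 82.1 ± 47.6 CPM, and the log2 effects were 5.31 and 5.43. MAFF, a small MAF factor, had effects of 4.03 and 3.49 at 3 hours and still of 3.35 and 2.84 at 18 hours. NR4A3, a relative of NR4A1, had 3.47 and 3.51 at 3 hours and 2.06 in low responders at 18 hours, while its 0.56 in high responders at 18 hours was not called. The difference between phenotypes was not called for NR4A1, MAFF or NR4A3 at either time.

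Of 5 matched feedback and output genes of ERK, 1 rose and 2 fell in high responders at 3 hours, and 1 rose and 1 fell in low responders. Of genes with a symbol, 27.7% and 19.9% were called higher and 12% and 7.56% lower at that time. At 18 hours 2 rose and 2 fell in high and 1 rose and 3 fell in low responders. The shares of genes with a symbol were then 32.5% and 20% higher and 26% and 21.7% lower. Nothing is read from counts among 5 genes beside these shares. SPRY2, an inhibitor of receptor signalling, fell in all 4 comparisons, by 1.95 and 1.66 on the log2 scale at 3 hours and by 1.48 and 1.38 at 18 hours in high and low responders. DUSP6, the phosphatase of ERK, fell by 0.67 in high responders at 3 hours and by 1.26 in low responders at 18 hours. Its effects of -0.58 in low responders at 3 hours and -0.57 in high responders at 18 hours stayed under the fold threshold. SPRY4, a relative of SPRY2, rose by 1.43 in high responders at 18 hours and was not called elsewhere. EPHA2, a receptor tyrosine kinase, fell by 1.76 and 0.74 at 18 hours and was not called at 3 hours. LIF, a cytokine of the IL-6 family, rose with effects of 6.82 and 5.33 at 3 hours and of 4.99 and 3.16 at 18 hours, the first of which rests on 14 counts in the 3 control libraries together.

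In the RAS-ERK cascade itself 2 of 22 genes were matched. MAP3K8, the kinase that feeds the cascade from Toll-like receptors, rose with log2 effects of 2.70 and 2.18 at 3 hours and of 2.19 and 1.70 at 18 hours. PTPN11, the phosphatase SHP2, rose by 1.15 in high responders at 3 hours and by 0.94 and 0.68 in high and low responders at 18 hours, and its 0.59 in low responders at 3 hours was not called.

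Among 8 growth factors and receptors, 6 rose and 1 fell in high responders at 3 hours, and 2 rose in low responders. Of genes with a symbol, 27.7% and 19.9% were called higher and 12% and 7.56% lower at that time. At 18 hours 5 rose and 2 fell in high and 2 rose and 2 fell in low responders. The shares of genes with a symbol were then 32.5% and 20% higher and 26% and 21.7% lower. CSF2, which encodes GM-CSF, had 5.71 ± 2.13 CPM in control and 1254 ± 899 CPM in exposed wells of high responders at 3 hours (SD, n = 3), and low responders had 15.6 ± 8.74 and 1858 ± 411 CPM. Its log2 effects were 7.40 and 7.02 at 3 hours and 7.78 and 6.98 at 18 hours. FLT1, a VEGF receptor, rose with effects of 2.44 and 1.39 at 3 hours and of 1.59 and 0.89 at 18 hours. PDGFB, a platelet-derived growth factor chain, fell by 0.97 and 0.89 in high responders at 3 and 18 hours and by 1.61 in low responders at 18 hours.

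Known EGR1 targets did not move as 1 group. ICAM1, an adhesion molecule, rose with log2 effects of 3.88 and 2.94 at 3 hours and of 2.73 and 2.03 at 18 hours in high and low responders. PLAU, urokinase, rose by 0.63 in low responders at 3 hours and by 1.19 in high responders at 18 hours. THBS1, a matrix glycoprotein, rose in high responders by 1.27 at 3 hours and 0.76 at 18 hours and fell in low responders by 0.87 and 3.05.

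**Figure D4:**
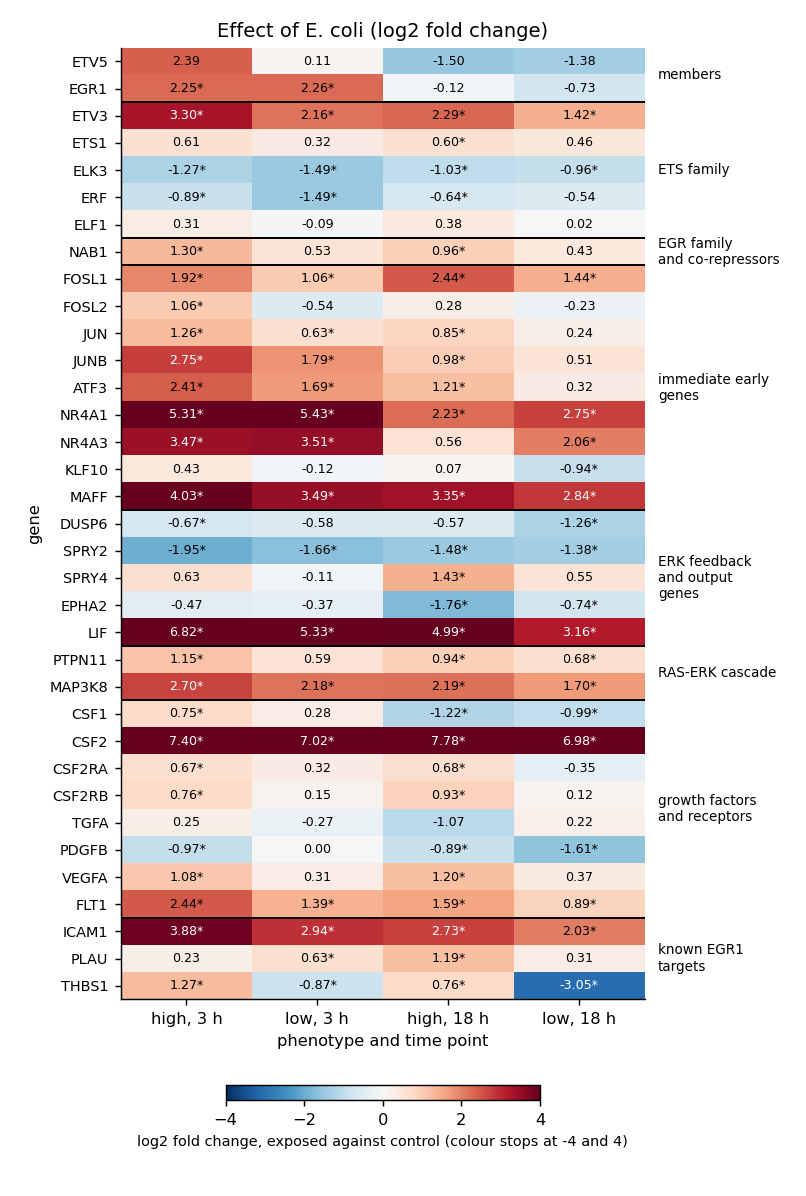
Fitted log2 fold change of exposed against control wells for ETV5, EGR1 and the 33 matched genes of 7 growth-signal lists, in high and low responders at 3 h and 18 h, with colour from blue (lower) to red (higher) and an asterisk on values past both thresholds, which is left off ETV5 and off EGR1 at 18 h because these values were used to choose the genes. NR4A1 (5.31 and 5.43 at 3 h), LIF (6.82 and 5.33) and CSF2 (7.40 and 7.02) have the darkest red, and SPRY2 is blue in all 4 columns.

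A difference of the E. coli effect between phenotypes was called for 1 of the 33 genes at 3 hours, where 0.178% of all genes and 0.492% of those with a symbol were called, and for 4 at 18 hours, beside 1.62% and 7.21%. At 3 hours it was FOSL2, an AP-1 subunit, with a log2 difference of 1.60 (SE 0.20, adjusted p = 0.0265, edgeR). FOSL2 had 65.2 ± 10.9 CPM in control and 132 ± 29.6 CPM in exposed wells of high responders (SD, n = 3), and low responders had 102 ± 8.93 and 69.7 ± 4.07 CPM. At 18 hours they were THBS1 (3.81), CSF2RA, the alpha chain of the GM-CSF receptor (1.02), ETV3 (0.87) and JUN (0.61), all higher in high responders, with adjusted p from 0.000963 to 0.0489. The THBS1 call held in all 6 fits that left out a cow. FOSL2 held in 2 of 6, ETV3 in 1, and JUN and CSF2RA in 0. The count at 3 hours was 11 without the high responder of code 94, 2 without that of code 92 and 0 without any other cow, and at 18 hours it was 3 without the high responder of code 93, 2 without the low responder of code 94 and 1 without any other cow.

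The genes with the profile most like each member were sought among 11217 others, as the smallest root mean square difference of log2 CPM over 24 libraries, with each gene centred on its own mean. The search used the values that led to the choice of the members, so that shared peaks follow from it and are a description. For ETV5 the nearest was ENSBTAG00000013298 at 0.54, and the 5 nearest ranged to 0.61, beside a median of 1.202 over all genes. None of these 5 could be matched to a symbol. For EGR1 the nearest was ENSBTAG00000016354 at 0.49, and the 5 nearest ranged to 0.60. GPR65, a proton-sensing receptor, was the only one of them with a symbol, at 0.602, and it was higher in exposed wells at 3 hours in both phenotypes, by 2.38 in high and 1.57 in low responders on the log2 scale of condition means. At 18 hours its centred mean in high responders was -0.76 in control and -0.04 in exposed wells, where EGR1 had -0.55 and -0.66. In low responders at 18 hours both genes were lower in exposed wells. ETV5 and EGR1 differed from each other by 1.03, which ranked EGR1 at 1599 from ETV5 and ETV5 at 546 from EGR1.

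**Figure D5:**
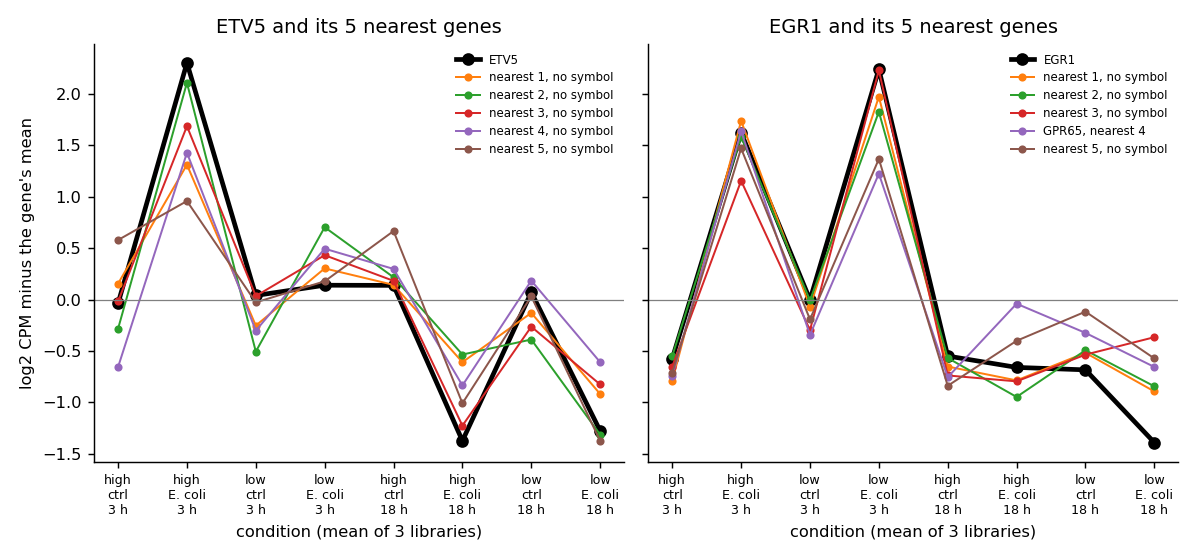
Mean log2 CPM of 3 libraries in each of the 8 conditions, minus the gene's own mean over 24 libraries, for ETV5 and its 5 nearest genes (left) and EGR1 and its 5 nearest genes (right), with the member in black. The genes were picked for likeness over these same values, so that shared peaks follow from the search. Those nearest to ETV5 are highest in the exposed high responder wells at 3 h. The fifth of them has 0.96 there and 0.67 in high responder control wells at 18 h. Those nearest to EGR1 are highest in the exposed wells of both phenotypes at 3 h.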

How the data were processed

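Expression was measured by stranded mRNA sequencing in 24 libraries of bovine MDMs. Reads were trimmed by the authors (Trimmomatic), aligned to UMD 3.1 with its Ensembl annotation (STAR) and quantified per gene, and the authors deposited RSEM tables per library with expected counts (estimated, not normalized), effective lengths and TPM, which RSEM scales to gene length and library. The authors' own test was DESeq2 1.22.2 after tximport.

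Here, expected counts were rounded, filtered with filterByExpr by condition, scaled by TMM and fitted with the quasi-likelihood model of edgeR 4.0.16 (R 4.3.3). The 12 libraries of a time point were fitted together, every cow having its own baseline and each phenotype its own response to E. coli. Control and exposed wells were also compared between phenotypes in fits of 6 libraries. Each adjusted p is a Benjamini-Hochberg value over all genes tested (11264 at 3 h and 11759 at 18 h in the fits of 12 libraries), with thresholds of 0.05 and a 1.5-fold change. SE and 95% intervals come from the same test. CPM are TMM-normalized over the 24 libraries, and SD is over 3 libraries.

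Deviations from the group mean correlated between 0.327 and 0.732 in the 12 pairs of libraries with the same number, phenotype and time, and between -0.568 and 0.005 in the 24 others. Same-numbered wells were therefore treated as paired. Taking deviations from the group mean itself lowers the correlations of the others when those of same-numbered pairs are positive. The correlations cannot show that the number marks a cow. The labels do not say how the wells were cultured. The p-values rest on a spread estimated per gene over both phenotypes together and moderated across genes. They therefore do not measure the spread between the 3 cows of 1 phenotype. With 3 values against 3, the smallest two-sided p of an exact permutation test is 0.1. No 2 libraries were identical.

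The members, lists and tests were chosen with earlier results of these data known. From each list the matched genes named were the 3 with the largest effect past the thresholds, those with a called difference between phenotypes, and NAB1, DUSP6 and SPRY4 being added after their values were seen. A test of ETV5 at 18 h was planned, but its p-values, SE and intervals are not given, since the choice of ETV5 for its change with time used those values. Symbols came from the gene name columns of 2 shortened supplementary tables (2808 identifiers), whose fold changes and p-values were not used. On simulated counts with known differences of effects, 42 of 100 2-fold and 95 of 100 4-fold differences were called at 3 h, and 76 and 99 of 100 at 18 h. The changed genes were drawn from those with a fitted mean above 50 counts, so that the shares do not cover genes with fewer counts. At each time point 9 unchanged genes were called as well. Alternatives were other size factors, 2 other filters on low counts (none, and a mean of 50), DESeq2 1.42.0 without and with length offsets, a fit without the baseline per cow, 1 fit over all 24 libraries, a term for exposure by code number, and each cow left out.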

Additional observations from a re-analysis of the deposited data

Results flagged for a closer look

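For 5 of the 33 matched growth-signal genes a difference of the E. coli effect between high and low responders was called. Of genes with a symbol, 0.492% were called at 3 hours and 7.21% at 18 hours, against 0.178% and 1.62% of all genes. Only genes with a symbol in the study's tables of this same contrast could be matched, so that the count is no independent support. The called genes were FOSL2 at 3 hours, with a log2 difference (high minus low) of 1.60, and at 18 hours THBS1 (3.81), CSF2RA (1.02), ETV3 (0.87) and JUN (0.61). At 3 hours FOSL2 had an effect of 1.06 in high and of -0.54 in low responders, and at 18 hours THBS1 had 0.76 and -3.05. THBS1 in exposed wells at 18 hours ranged from 131 to 499 CPM in high and from 9.12 to 40.3 CPM in low responders, and the groups did not overlap. CSF2RA had 112.5 ± 4.26 CPM (SD, n = 3) in exposed high and 50.1 ± 18.6 CPM in exposed low responder wells at that time. Over 14 alternatives, the call was kept in 13 for THBS1, 8 for FOSL2, 7 for ETV3 and 5 each for JUN and CSF2RA. JUN and CSF2RA kept it in 0 of the 6 fits that left out a cow.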

How the results depend on the processing

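Every tested result of EGR1 at 3 h kept its side of the thresholds under all alternatives, with effects of E. coli between 1.71 and 2.72, and the effects of ETV5 at 18 h, given without a test, stayed between -1.70 and -1.25. Without the term for the cow (no replicate block), 3 in place of 5 list genes fell in high and 2 in place of 4 in low responders at 3 h, and a difference between phenotypes was called for 0 in place of 1 at 3 h and 0 in place of 4 at 18 h. At 3 h the latter count was 4 with no filter on low counts, 5 with DESeq2, 5 with DESeq2 and length offsets, 5 with all 24 libraries in 1 fit, 0 with the term for exposure by code number, and from 0 to 11 with a cow left out, the 11 without the high responder of code 94. At 18 h it was 10 with no filter, 11 with DESeq2, 11 with length offsets, 1 with the term for code number, and from 1 to 3 with a cow left out. Raised list genes in low responders at 3 h numbered from 9 to 15 with a cow left out, the 9 without the low responder of code 92. The cause of these moves was not tested. Over the 3 control libraries of a group, LIF had from 14 to 87 and NR4A3 from 25 to 38 counts, and the SE of their log2 effects reached 0.52 and 0.69.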
